A study of Mus musculus with 2 samples.

Results

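The proteins of the mitochondrial ribosome are encoded by nuclear genes whose symbols begin with Mrpl or Mrps. Members were the annotated protein-coding genes with such a symbol followed by a number and at most 1 letter, listed in both libraries, and the reads of all their transcript models were summed. The rule found 78 genes, among 11160 annotated genes with reads in both libraries. Every gene of that name form in the GENCODE M21 annotation of the mouse was among them. The members held 5812 reads on 397 models in replicate 1 and 4706 reads on 341 models in replicate 2, and all 78 had the 10 reads needed to enter the comparison of the libraries.

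The series measured long-read RNA sequencing in the gastrocnemius, the calf muscle, of male B6CASTF1/J mice at 14 days of age. These mice are first-generation hybrids of a C57BL/6 and a CAST parent, carry no added allele and received no treatment that the labels name. There was 1 group of 2 biological replicates with 2 µg of RNA each, and so no contrast between conditions. The labels give a single donor identifier for both and name several males per biosample, so whether a replicate was a pool or a separate animal is not stated, and the spread between the libraries may be technical.

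The mitochondrial ribosome translates the few mRNAs of the mitochondrial genome, which encode core subunits of the respiratory chain and of ATP synthase. Its small subunit reads the mRNA and its large subunit joins amino acids. Some of its proteins descend from the bacterial ribosome and others were added in mitochondria, and all of them are made in the cytosol and imported. Muscle depends on this machinery because oxidative phosphorylation supplies much of its ATP.

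With spike-ins left out, 1094607 reads came from replicate 1 and 626289 from replicate 2. Levels are counts per 1000000 of these reads (CPM). A long read stands for 1 molecule, so CPM were not divided by transcript length. All 6 skeletal muscle markers were high, from 6240 CPM for Actn3 to 76577 CPM for Atp2a1. The libraries differed in tissue markers and in length. All 5 fibroblast and tendon markers were lower in replicate 2, with a sum of 3366 against 8010 CPM, while all 3 Schwann cell markers were higher there, with a sum of 532 against 299 CPM. Of the other lists, endothelial markers summed to 328 and 216 CPM, macrophage markers to 49.3 and 38.3 CPM, red cell markers to 621 and 1138 CPM and adipocyte markers to 116 and 244 CPM, with Adipoq at 0 reads in replicate 1. In whole tissue, fewer cells of a type and less RNA per cell cannot be told apart. The markers were not set against the length trend described below, so the part of transcript length in these differences was not tested.

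Every member had reads in both libraries. The median member stood at 66.7 CPM, and 71 of 78 members lay between 20 and 200 CPM. Between the lower and the upper quartile the list ran from 44.8 to 96.1 CPM, a 2.14-fold span, and the whole list ran from 17.2 to 485 CPM. For scale, the quartiles were 135 and 310 CPM in cytosolic ribosomal protein genes and 426 and 699 CPM in complex I genes, lists described below. The median member stood at percentile 86.0 of the genes with reads in both libraries, and the lowest at percentile 58.9. Against the median gene of like transcript length, the median member was 4.20-fold higher, and 77 of 78 members were above it. In the order of mean levels, 75 of 77 neighbouring pairs overlapped in the CPM of their replicates, so the order of most neighbours is not resolved.

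Together the members reached 5310 CPM in replicate 1 and 7514 CPM in replicate 2, a mean of 6412 ± 1559 CPM (SD, n = 2). This was 0.531% of the reads of replicate 1 (exact Clopper-Pearson 95% interval 0.517% to 0.545%) and 0.751% of those of replicate 2 (0.730% to 0.773%). The intervals cover counting error only and do not overlap. For scale, the 77 cytosolic ribosomal protein genes summed to 21361 ± 8792 CPM with a median of 211 CPM per gene (SD, n = 2). Complex I is the first enzyme of the respiratory chain. Its list was 36 nuclear genes with the symbol Nduf, a letter a, b, c, s or v, and a number. They summed to 21839 ± 8677 CPM with a median of 474 CPM per gene (SD, n = 2). As the list was taken by symbol alone, it may hold genes of other complexes and miss subunits with other symbols. These values describe the lists, without a test between them.

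Proteins of the large subunit accounted for 51 genes and those of the small subunit for 26. Mrps18a and Mrps30 were placed in the large subunit, where their proteins reside despite their symbols. Mrps36 was set apart, because its protein is a part of the oxoglutarate dehydrogenase complex of the citric acid cycle. Large-subunit genes held 66.9% of the reads on both subunits in replicate 1 and 69.9% in replicate 2 (68.4 ± 2.12%, SD, n = 2), beside 66.2% of the genes. The reads thus divided between the subunits nearly as the genes did. The median gene stood at 66.0 CPM in the large subunit and at 68.2 CPM in the small.

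Members with a bacterial counterpart and those added in mitochondria also had like medians. In the large subunit the 30 genes with a bacterial counterpart had a median of 59.5 CPM, with the widest range of the 4 groups at 17.2 to 485 CPM, and the 21 mitochondria-specific genes had a median of 67.4 CPM. In the small subunit the medians were 72.5 CPM for 16 genes with a counterpart and 60.4 CPM for 10 specific genes. The 4 members below 20 CPM all had a bacterial counterpart.

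**Figure D1:**
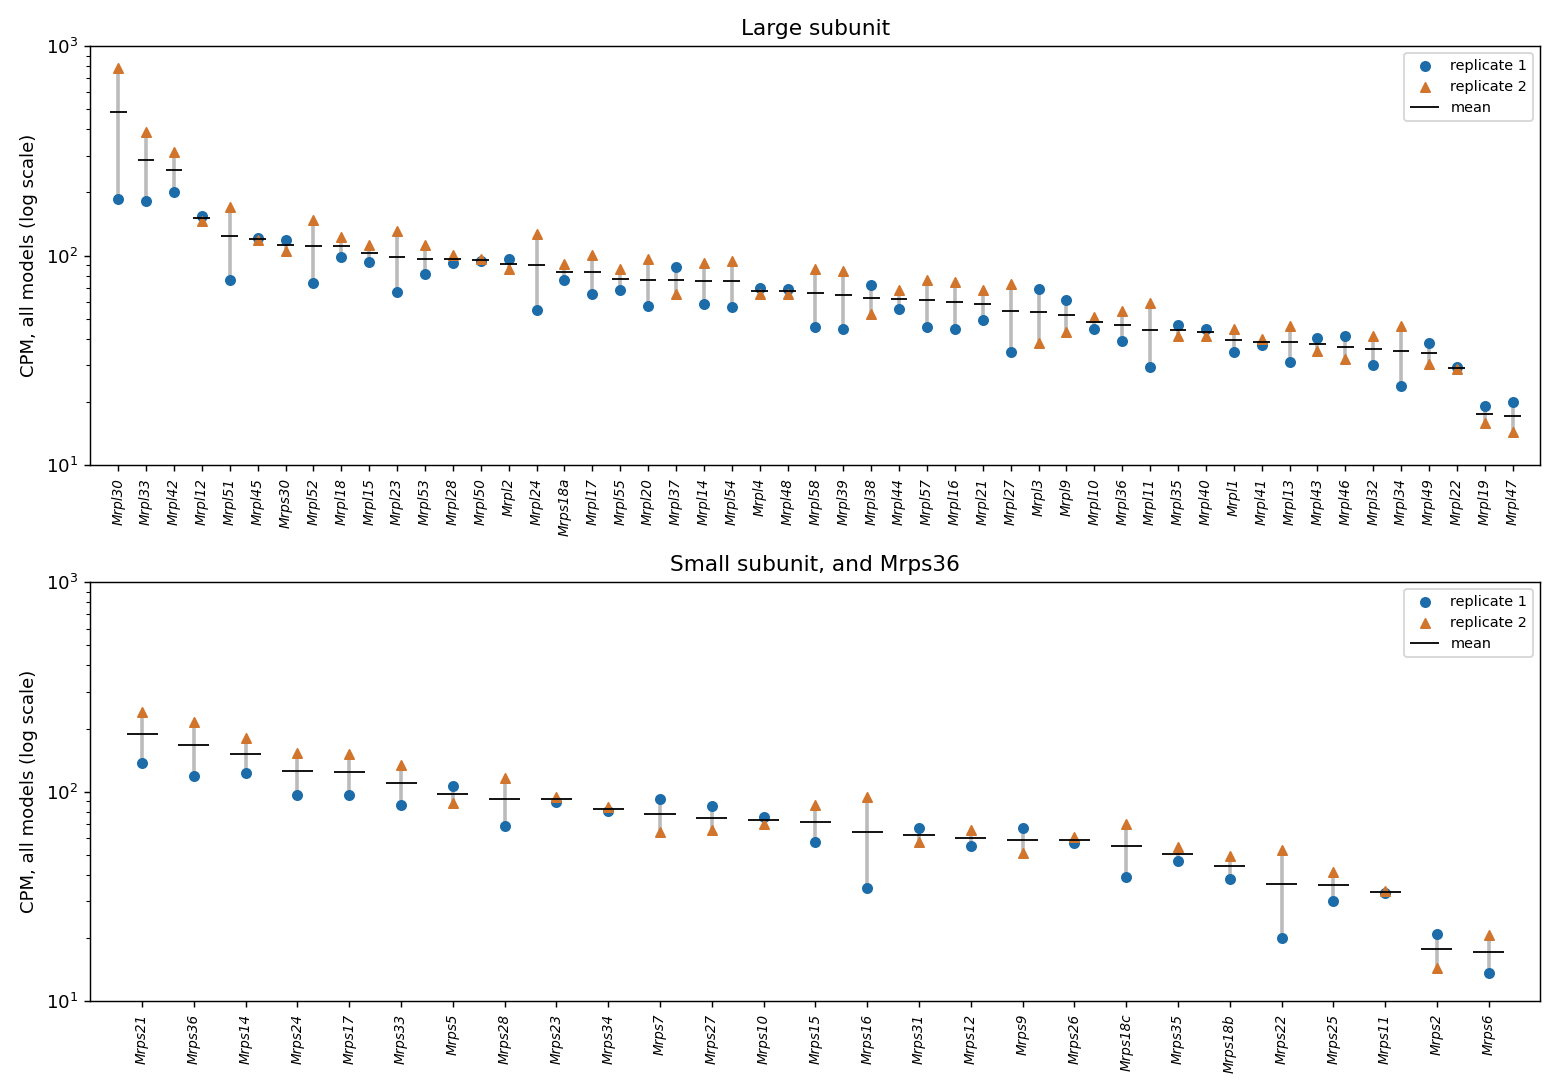
Level of each of the 78 members in CPM on a log axis, large-subunit genes above and small-subunit genes with Mrps36 below, ordered by mean. Circles are replicate 1, triangles replicate 2, short bars the mean and grey lines the span between replicates; Mrpl30, Mrpl33 and Mrpl42 stand above 200 CPM, and Mrpl30 has the widest span, from 186 to 784 CPM.

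The 10 highest members held 25.8% of the member reads in replicate 1 and 36.5% in replicate 2. Mrpl30, a large-subunit protein with a bacterial counterpart, led with 186 CPM in replicate 1 and 784 CPM in replicate 2, far from each other. Mrpl33, a small bacterial-type protein of the large subunit, followed with 182 and 386 CPM. Mrpl42, a mitochondria-specific protein, had 200 and 313 CPM. In all 3 the second library was the higher one. In the small subunit Mrps21 led with 137 and 240 CPM. Mrps14 followed with 122 and 180 CPM. Both have bacterial counterparts, and replicate 2 was again the higher. Mrps36 reached 119 and 214 CPM. Mrps24 and Mrps17, a pair of small-subunit proteins with bacterial counterparts, had nearly equal values, with 96.8 and 153 CPM for the first and 96.8 and 152 CPM for the second. Mrpl51, specific to mitochondria, had 76.7 and 171 CPM.

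Mrpl12 broke this order of the libraries among the 10 highest. Its protein forms the flexible stalk that contacts translation factors and has also been found bound to mitochondrial RNA polymerase. It had 154 CPM in replicate 1 and 147 CPM in replicate 2, a mean of 151 ± 5.30 CPM (SD, n = 2). Its partners at the base of the stalk were lower. Mrpl10, which anchors Mrpl12, had 44.8 and 51.1 CPM, and Mrpl11, which binds the rRNA below it, had 29.2 and 59.1 CPM. In both libraries the level of Mrpl12 was above those of Mrpl10 and Mrpl11, without overlap.

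At the other end, Mrps6 had 13.7 and 20.8 CPM and Mrpl47 had 20.1 and 14.4 CPM. Mrpl19 had 19.2 and 16.0 CPM and Mrps2 a mean of 17.7 ± 4.70 CPM (SD, n = 2). The fifth from the bottom was Mrpl22 with 29.2 and 28.7 CPM. The first 4 overlap and rest on 9 to 23 reads per library, so no order among them is resolved. All of their proteins have bacterial counterparts, those of Mrps2 and Mrps6 in the small subunit and the rest in the large.

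Among members with a role of their own, Mrpl58 stood at 45.7 and 86.2 CPM. It encodes a peptidyl-tRNA hydrolase that frees stalled ribosomes and is also built into the large subunit. Mrpl44, which has a fold like that of RNase III, had 55.7 and 68.7 CPM. Mrpl41, also described as a partner of Bcl-2, had 37.5 and 39.9 CPM, values close to each other. Mrps12, the protein at the decoding centre, had 54.8 and 65.5 CPM.

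The Mrps18 family holds 3 genes for related proteins with separate places. Mrps18a, whose protein sits in the large subunit, had 76.7 and 91.0 CPM. Mrps18b and Mrps18c, both of the small subunit, had 38.4 and 49.5 CPM and 39.3 and 70.3 CPM. Mrps18a was above both in each library, and its range did not overlap theirs, while Mrps18b and Mrps18c overlapped.

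Among the other genes of mitochondrial translation, the translation factors, assembly factors and aminoacyl-tRNA synthetases had lower medians per gene than the members. The 5 mitoribosomal proteins with other names had a higher one, 100 CPM. They summed to 502 ± 182 CPM (SD, n = 2), led by Gadd45gip1 with 115 and 321 CPM, Chchd1 with 66.7 and 144 CPM and Aurkaip1 with 95.0 and 105 CPM. The 15 translation factors had a median of 39.1 CPM per gene. Slirp, which binds mitochondrial mRNA with Lrpprc, led them with 98.7 and 252 CPM, and the elongation factor Tufm had 84.0 and 59.1 CPM. Lrpprc had 76.7 and 51.1 CPM. Assembly and rRNA modification factors had a median of 19.9 CPM over the 23 annotated genes of the 24 listed, with Malsu1 at 38.4 and 79.8 CPM, Rbfa at 51.2 and 46.3 CPM and Mpv17l2 at 36.5 and 39.9 CPM.

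The 17 mitochondrial aminoacyl-tRNA synthetases, which charge tRNAs, had a median of 18.4 CPM, with Fars2 at 78.6 and 54.3 CPM, Aars2 at 53.9 and 60.7 CPM and Tars2 at 52.1 and 49.5 CPM. The rRNAs of the ribosome, mt-Rnr1 and mt-Rnr2, together had 71 and 18 reads. The 13 protein-coding genes of the mitochondrial genome had 1522 and 1190 reads and a median of 70.1 CPM over the 10 with reads, with mt-Cytb at 281 and 945 CPM, mt-Co1 at 576 and 426 CPM and mt-Nd1 at 119 and 128 CPM. For mt-Nd6 the count was 0 in each library, which allows up to 2.74 CPM in replicate 1 and 4.79 CPM in replicate 2 (3 reads each). All these values are of reads in these libraries, and how fully RNAs of the mitochondrial genome were captured was not tested. Both mt-Atp8 and mt-Nd4l were also listed at 0, but each shares an mRNA with a gene that had reads, mt-Atp6 (86 and 70 reads) and mt-Nd4 (77 and 35 reads), so their 0 sets no limit on that mRNA.

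**Figure D2:**
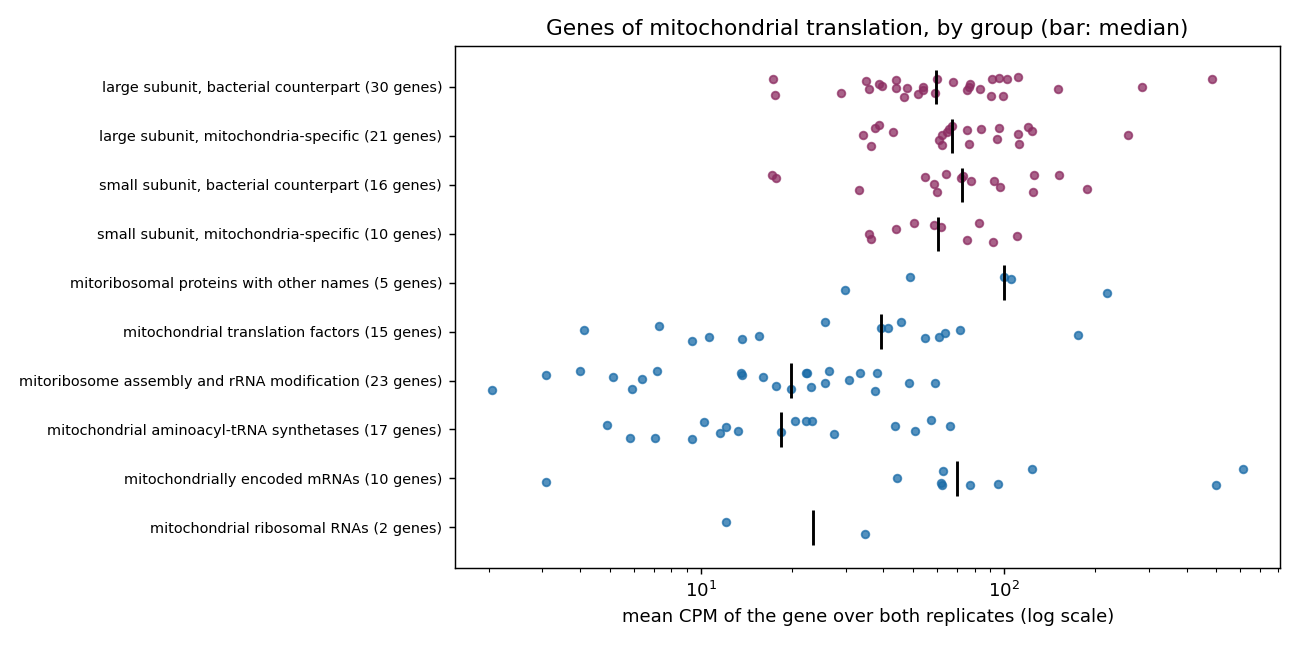
Mean CPM over both replicates of each gene of mitochondrial translation with reads, on a log axis, by group, with a bar at the group's median. The 4 groups of members have medians from 59.5 to 72.5 CPM, and the synthetases and assembly factors lie lower, with medians of 18.4 and 19.9 CPM.

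A read was assigned by the authors to an annotated model, to a partial match of one (ISM), to a new join of annotated splice sites (NIC), to a model with an unannotated splice site (NNC) or to a model that overlaps a gene without its splicing (Genomic). Complete models here are the annotated, NIC and NNC classes. A leading model, the complete model with most reads, could be named for the 69 members with at least 20 complete reads in each library. It was annotated for 68 of 69 and the same in both libraries for 68 of 69. Its median share was 94.3% of the gene's complete reads, and 56 members gave it at least 90%. Most of these genes therefore had 1 model that held nearly all complete reads, with 2 to 12 exons and a median of 5.

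Mrpl33 was the exception to annotation. Its leading model, 189 of 199 complete reads in replicate 1 and 237 of 242 in replicate 2, is of the NNC class and has 3 exons. The annotated coding transcript Mrpl33-201, with 4 exons on the forward strand of chromosome 5 (mm10), had 0 reads in both libraries. Its exon of 19 bases, at 31614603 to 31614621 inside the coding sequence, is absent from the leading model. In its place the first exon runs on by 8 bases, from 31614023 to 31614030, before the exon at 31616381 that both share. The stretch where the models part is shown from GENCODE M21 transcripts, with the 15 bases before and after in lower case and the differing bases in capitals:
Mrpl33-201: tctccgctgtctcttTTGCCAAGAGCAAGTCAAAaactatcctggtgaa
leading model: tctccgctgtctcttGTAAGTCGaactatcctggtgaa

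The capitals of the annotated transcript are the short exon, and those of the leading model are the 8 bases that follow the annotated end of the first exon. The bases just after them in the annotation are GT, the letters at most splice donor sites. The 8 bases themselves also begin with GT, right after the annotated end of the first exon. They share a run of 5 bases, AAGTC, with the 19-base exon. All models of Mrpl33 that hold the 19-base exon together had 5 and 1 reads. Read from the annotated start codon, the annotated transcript has 65 codons before its stop codon, and the leading model reaches a stop after 42. The files give counts per model and no read bases, so whether the RNA carries the 19 bases was not tested. The gene also overlaps a neighbouring gene on its strand.

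**Figure D3:**
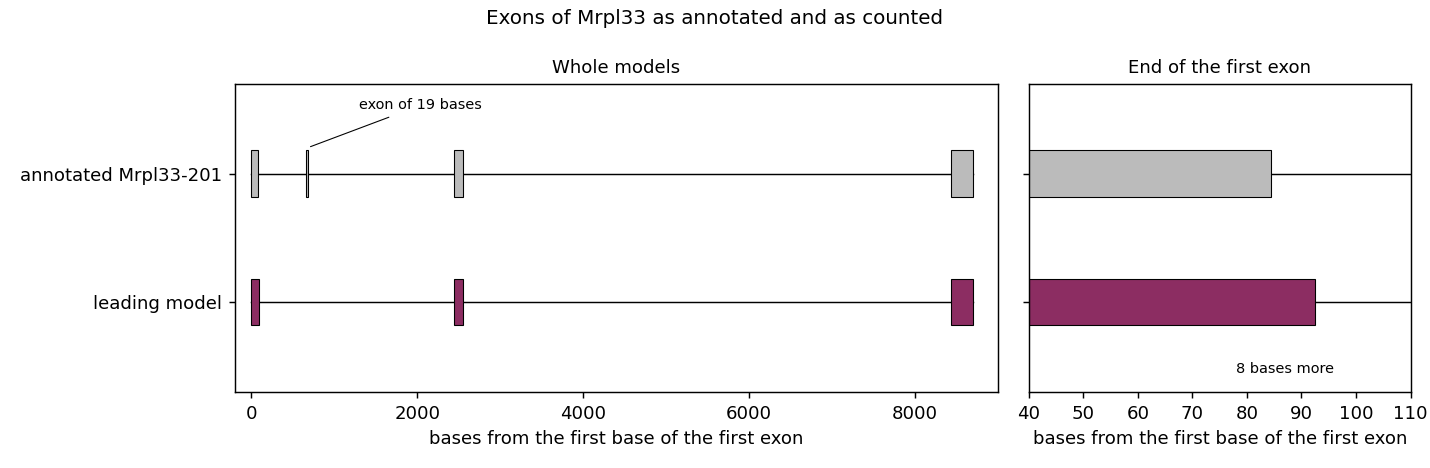
Exons of Mrpl33 as boxes against the distance in bases from the start of the first exon, for the annotated transcript (grey) and the leading model of both libraries (purple), whole on the left and enlarged at the end of the first exon on the right. The leading model lacks the exon of 19 bases and its first exon is 8 bases longer.

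Mrps10, a protein of the small subunit's head, was the member whose leading model differed between the libraries. Mrps10-203 held 44 of 80 complete reads in replicate 1 and 15 of 43 in replicate 2, and Mrps10-204 held 35 of 80 and 28 of 43. With a minimum of 20 complete reads per library the difference was not called (chi-square test, p = 0.698 after Benjamini-Hochberg adjustment over all genes with that minimum). Apart from their outer ends, which lie a few bases apart, the transcripts differ in 1 splice acceptor on chromosome 17. It lies 3 bases further on in Mrps10-204. The coding sequence is 603 bases in Mrps10-203 and 600 in Mrps10-204, a difference of 1 codon. The join at that acceptor is shown with the extra bases in capitals:
Mrps10-203: tggtggcctcgcgctCAGtgccagtatgaa
Mrps10-204: tggtggcctcgcgcttgccagtatgaa

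The capitals mark the bases CAG at 47372573 to 47372575, and the bases on either side are identical. Mrpl55 had a like choice. Its leading transcript Mrpl55-201 held 43 of 74 and 31 of 54 complete reads, and Mrpl55-203, which starts its second exon 3 bases later, held 9 of 74 and 7 of 54. The bases left out are again CAG, at 59204172 to 59204174 on chromosome 11, and the coding length is 381 bases in both.

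In 5 more members the leading model held under 75% of complete reads. In Mrps12 the 3-exon Mrps12-201 held 39 of 58 and 21 of 39 reads and the 2-exon Mrps12-204 held 18 of 58 and 14 of 39, with 417 coding bases in each. In Mrps17 the leading Mrps17-201 held 62 of 104 and 49 of 87 reads, and in Mrpl24 Mrpl24-202 held 13 of 28 and 13 of 23. In these 3 genes the second model kept the total coding length, so the difference in length lay in untranslated parts. Whether the coding bases are the same was not compared. In Mrpl57, a mitochondria-specific protein of the large subunit, Mrpl57-201 held 35 of 50 and 32 of 48 reads, and the single-exon Mrpl57-202, annotated as a retained intron, held 10 of 50 and 12 of 48. In Mrps23, specific to the small subunit, Mrps23-201 held 68 of 95 and 36 of 57 reads and Mrps23-203 held 11 of 95 and 9 of 57, with coding lengths of 531 and 474 bases.

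The division of reads among models was compared between the libraries. Of 29 members with at least 50 complete reads per library, 0 were called by Fisher's exact or the chi-square test with Benjamini-Hochberg adjustment over 961 genes, where 4.99% of genes were called. At an unadjusted threshold of 0.05, 3 of 29 members passed, among them Mrps24 with p = 0.0173 in the chi-square test, beside 111 of 961 genes. With 20 reads per library, 0 of 62 members were called, beside 62 of 2108 genes. These counts do not set the members apart from all genes.

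By class, 86.3% of member reads in replicate 1 and 75.2% in replicate 2 lay on annotated models, beside 71.8% and 71.7% over all annotated genes. The annotated share was 87.25% and 78.86% in cytosolic ribosomal proteins and 84.27% and 75.03% in complex I genes. A share above that of all genes was thus not particular to the members. Partial models held 3.42% and 5.25% of member reads, against 10.2% and 11.6% over all genes. NNC models held 5.54% and 7.10%, against 11.8% and 7.95% over all genes, and Genomic models 3.42% and 11.3%, against 2.34% and 4.69%. Mrpl33 and Mrpl30 carried much of the last 2 classes. Without them, a choice made after the values were seen, annotated models held 91.2% and 86.7%, NNC models 2.37% and 2.37%, and Genomic models 1.46% and 3.42%.

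Many of the rarer spliced models were seen in 1 library only. Replicate 1 had 50 NIC and 95 NNC intron chains of members and replicate 2 had 35 and 73. In common were 17 NIC chains, 34.0% of those in replicate 1 and 48.6% of those in replicate 2, and 24 NNC chains, 25.3% and 32.9%. The same shares were not computed over all annotated genes, so these counts do not set the members apart.

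**Figure D4:**
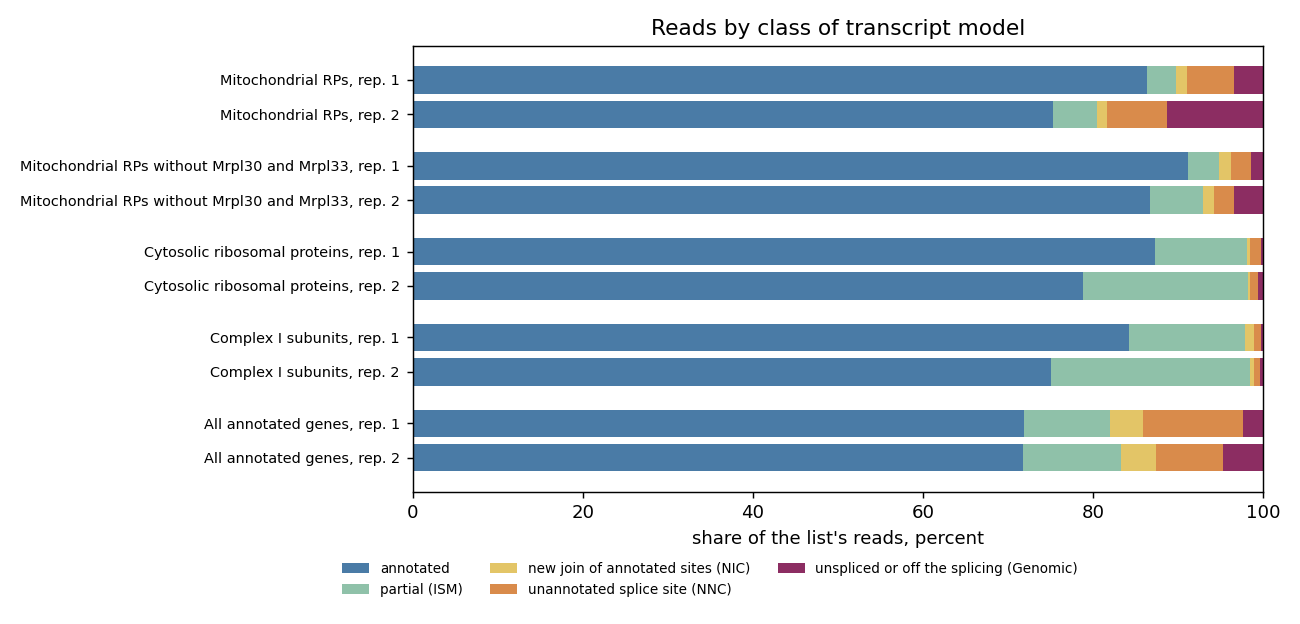
Share of reads by class of model in percent, for the members, the members without Mrpl30 and Mrpl33, the comparison lists and all annotated genes, 1 bar per replicate. Genomic models take 3.42% and 11.3% of the member reads, and 1.46% and 3.42% without the named pair.

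The 5 members with the largest Genomic share among those with at least 50 reads were Mrpl30, Mrpl24, Mrps16, Mrpl49 and Mrpl43. In Mrpl30, 120 of 204 reads in replicate 1 and 394 of 491 in replicate 2 lay on 1 single-exon model at 37898165 to 37898338 of chromosome 1 (mm10, forward strand). This window of 174 bases, as listed, lies inside the last exon of 475 bases and starts with 97 coding bases. The extent of the reads themselves is not given. Its ends coincide with the annotated 3′ ends of Mrpl30-206 and Mrpl30-207, and over all members 98 of 119 partial and Genomic models in replicate 1 and 84 of 105 in replicate 2 ended at an annotated 3′ end. Complete models of Mrpl30 gave 76.7 and 155 CPM, rank 9 of the members, in place of rank 1.

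Mrpl24, a protein near the exit of the tunnel for the new peptide, had 32 of 60 and 56 of 79 reads on Genomic models, all on a model listed with a length of 1 base at 87923316 of chromosome 3. Mrps16 had 0 of 38 and 15 of 59, also on a model listed at 1 base. The listed length is thus not the length of the reads. Mrpl49 had 5 of 42 and 2 of 19 Genomic reads, and Mrpl43 had 1 of 44 and 4 of 22. In Mrpl24 and Mrpl30 the majority of reads in both libraries were of this class, and in the other 3 it was a minority.

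Partial models had reads in 58 of 78 members. The 4 genes described here, named after their values were seen, held 52 of the 199 partial reads in replicate 1 and 114 of 247 in replicate 2. In Mrpl51 a model within the last exon had 16 of 84 reads in replicate 1 and a like one 58 of 107 in replicate 2. Mrpl16 had 14 of 49 and 16 of 47 reads on a model of 646 bases in its last exon. Mrpl44 had 11 of 61 and 15 of 43 on its last exon of 482 bases. In Mrps22 all partial models together held 5 of 22 and 22 of 33 reads.

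Between the libraries, 22 of 78 members differed beyond counting error, all of them higher in replicate 2 (Fisher's exact test, two-sided, Benjamini-Hochberg adjusted p below 0.05 over 7955 genes). Over all genes 13.5% were called either way, 6.56% higher in replicate 2 and 6.89% higher in replicate 1. The test compares 2 libraries of 1 group and says nothing on a condition. The median log2 ratio of replicate 2 over replicate 1 was 0.33 over the members and -0.24 over all genes tested. Cytosolic ribosomal proteins and complex I had medians of 0.80 and 0.86, with 53 of 76 and 30 of 36 genes called. Scaling by TMM factors in place of total reads moved the median of all genes by 0.25, gave the members a median of 0.58 and called 30 of them, all higher in replicate 2. Over all genes TMM split the calls into 732 higher and 203 lower in replicate 2, against 522 and 548 by total reads.

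Transcript length moved with this ratio. Genes under 1000 bases had a median log2 ratio of 0.66 over all genes and 0.66 over 26 members, and those from 1000 to 2000 bases had -0.10 and, over 28 members, -0.08. Above 2000 bases, all genes had -0.40 and the 24 members 0.25. When the expected share was set by length, 12 of 78 members were called, all above the trend, where 6.63% of all genes were called, 4.46% above the trend and 2.17% below it. The median member then lay 0.12 above the trend on the log2 scale. Of these 12, 9 were among the 22. Under the same setting 19 of 76 cytosolic ribosomal proteins and 16 of 36 complex I genes were called, 1 of each list below the trend. The medians of these lists lay 0.14 and 0.19 above the trend, so the members were not set apart from them. Lengths are those of the models, not of the reads, and the part of length or of the tissue markers in the result was not tested.

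**Figure D5:**
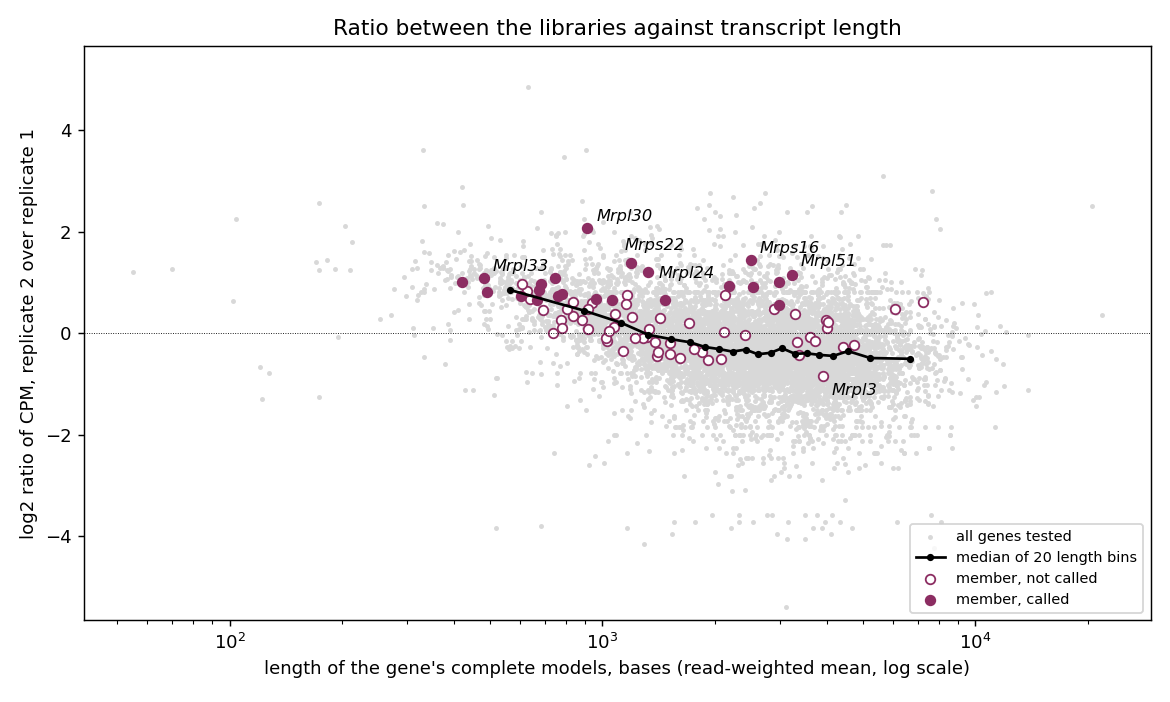
Log2 ratio of CPM, replicate 2 over replicate 1, against the read-weighted mean length of a gene's complete models (log axis). Grey points are all genes tested, the black line the medians of 20 length bins, and purple points the members, filled where called; called members all lie above 0, with Mrpl30 at 2.07.

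The largest ratios among called members were those of Mrpl30, 4.21-fold higher in replicate 2 (Fisher's exact test, adjusted p = 2.5e-72), Mrps16, 2.71-fold (2.9e-05), Mrps22, 2.62-fold (0.0051), Mrpl24, 2.30-fold (3.1e-05), and Mrpl51, 2.23-fold (1.2e-06). Replicate 2, with fewer reads in all, held the larger number for each of the 5, from 22 against 33 reads for Mrps22 to 204 against 491 for Mrpl30. Mrps22 and Mrpl51 are mitochondria-specific proteins of the small and the large subunit. Of these genes, Mrpl30, Mrps22, Mrpl24 and Mrpl51 also had many partial or Genomic reads. Mrps16 had 4 partial and 0 Genomic of 38 reads in replicate 1, and 1 and 15 of 59 in replicate 2. With complete models alone, Mrpl30 had 76.7 and 155 CPM and a log2 ratio of 1.09, against 2.07 with all models, and was still called (Fisher's exact test, adjusted p = 1.2e-05). On the same models Mrpl51, Mrps22 and Mrpl24 were no longer called, with Fisher's exact test adjusted p of 0.377, 0.934 and 0.431. Mrps16 had 31.1 and 68.7 CPM on complete models, still higher in replicate 2. No member was called as higher in replicate 1. The lowest ratio, named after its value was seen, was that of Mrpl3 with 76 and 24 reads (adjusted p = 0.064 by the same exact test).

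The genome around the members, which the rule did not use, is described here without a test. A promoter window of 250 bases before to 50 bases after the gene's start was matched by symbol in RefSeq (GRCm38.p6) for 69 of 78 members. The median GC content was 58.3% in members, 61.3% in 6172 genes tested in these libraries and 52.7% in all 27025 genes. The ETS-type motif CCGGAAG was found on either strand in 25 of 69 member windows, 36.2%, beside 20.2% of tested genes and 9.12% of all genes. The NRF1-type motif, GCGC and TGCGC parted by 1 free base, was in 13 windows, 18.8%, beside 12.2% and 4.78%, and the YY1-type motif AAGATGGC in 12, 17.4%, beside 5.65% and 2.88%. At least 1 of these 3 motifs was in 42 of 69 windows, a count not made for the other genes and so without a share to compare. CCAAT was in 39.1% beside 39.3% of tested genes, and TATAAA in 5.80% beside 7.19%. No motif searched contains another, and a match is a description of letters and not of binding.

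The member of highest complete-model level that holds the ETS-type motif in the 100 bases before its start, clear of any annotated exon, was Mrpl52 on chromosome 14, and the first with the NRF1-type motif was Mrpl45 on chromosome 11. Both are mitochondria-specific proteins of the large subunit, with means of 111 ± 52.7 CPM and 120 ± 2.37 CPM (SD, n = 2), and both lie on the forward strand. Their stretches, chr14:54426809-54426908 and chr11:97315616-97315715, are shown with the motif in capitals:
Mrpl52: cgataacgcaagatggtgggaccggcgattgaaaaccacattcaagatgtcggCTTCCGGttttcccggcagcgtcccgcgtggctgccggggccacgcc
Mrpl45: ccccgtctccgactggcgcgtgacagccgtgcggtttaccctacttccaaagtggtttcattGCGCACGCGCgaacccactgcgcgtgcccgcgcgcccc

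In both stretches the motif reads on the reverse strand, so the capitals show its reverse complement. Of the 78 members, 23 (29.5%) had a protein-coding gene starting head to head, from 300 bases inside to 1000 bases before the member's start. The same held for 14.2% of the 7639 protein-coding genes tested and for 8.64% of all 22028. Partners included Ndufs6 of complex I beside Mrpl36, with 123 and 281 CPM for Ndufs6 against 39.3 and 54.3 CPM for Mrpl36. Fau, which encodes a cytosolic ribosomal protein, had 105 and 168 CPM beside Mrpl49 with 38.4 and 30.3 CPM. Over the 23 pairs the member was the higher in both libraries in 18, the partner in 3 (Ndufs6, Fau and Psma2, a proteasome subunit that starts beside Mrpl32), and the order differed between the libraries in 2. The mitochondrial seryl-tRNA synthetase Sars2 starts beside Mrps12 and had 23.8 and 20.8 CPM.

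Members overlap other annotated genes in 42 cases, 13 of them with a gene on the same strand, and how such reads were assigned is not given in the sources used here. Processed pseudogenes, copies of spliced transcripts in the genome, matched 31 members over at least 200 bases at 80% identity or more. Of these 69 pseudogenes, 61 had no reads in either library. Mrpl23-ps1 on chromosome 2, named after its values were seen, had 67 and 69 reads beside 73 and 82 for Mrpl23, and matched the Mrpl23 transcript at 100% over 507 bases. The levels of Mrpl23, 66.7 and 131 CPM, are therefore uncertain. The other 7 with reads had at most 9 reads in replicate 1 and 14 in replicate 2, both for Gm5776, a copy of Mrps33.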

How the data were processed

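Long reads were counted per transcript model in 2 libraries of gastrocnemius RNA. The deposited values are whole read counts per model, 1 table per library with a matching annotation, made per the deposited descriptions from a filtered alignment on mm10 with GENCODE M21. The attribute names are those of TALON. The aligner and its version were not given in the sources used here.

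Counts were used as deposited. ERCC spike-ins were set aside, CPM were counts per 1000000 remaining reads, and a gene's count was the sum over its models. Annotated models were joined by identifier and others by class and intron chain. Transcript length was the read-weighted mean length of complete models. A two-sided Fisher's exact test compared the libraries for every gene with 10 reads or more, adjusted by Benjamini-Hochberg at 0.05, since 1 library a side leaves no spread to estimate. The length-adjusted form used 20 bins. Model shares were tested in genes with at least 50 complete reads per library. Scaling factors (TMM, 1.09 and 0.916) were computed with edgeR 4.0.16 in R version 4.3.3. All else ran in Python 3.11.15 with pandas 2.3.3, numpy 2.4.6, scipy 1.17.1 and matplotlib 3.10.9. Pseudogenes were matched with blastn.

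Named are the 10 highest and 5 lowest members, up to 5 called members of largest ratio each way, those whose leading model holds under 75%, is not annotated or differs, the 5 largest Genomic shares, the Mrps18 family, members with a role of their own and the top 3 of other lists. Subunits and origin were assigned from general knowledge. The members and lists were chosen with earlier results of these data known. Alternatives covered read minimums, thinning, TMM, classes of models, length and leaving out each replicate.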

Additional observations from a re-analysis of the deposited data

Results flagged for a closer look

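Reads on unannotated loci of the opposite strand, which enter no value above, were listed at 15 of 78 members with 27 reads in replicate 1 and 24 in replicate 2. In 2 genes they exceeded the 3 reads that a count of 0 allows in both libraries. Opposite Mrps6 there were 12 and 6 reads, beside 15 and 13 reads on Mrps6 itself, and opposite Mrpl51 there were 7 and 7 reads, beside 84 and 107. The source of these reads was not tested.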

How the results depend on the processing

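The median member level was 66.7 CPM, and 4.20 on the scale relative to genes of like length. In CPM it stayed between the medians of the replicates with complete models alone (62.3) and TMM scaling (67.7). With annotated models alone (58.5) it fell below both medians. With 1 replicate left out it ran from 59.8 to 71.9 CPM, the summed level from 5310 to 7514 CPM, the large-subunit share from 66.9% to 69.9% and the share on annotated models from 75.2% to 86.3%. The large-subunit share of 68.4% became 63.6% by the letter of the symbol, 64.4% with annotated models alone and 66.1% with complete models alone. The median over members of the annotated share was 90.9% against 80.8% for summed reads, and without Mrpl30 and Mrpl33, an alternative chosen after seeing the data, the summed share was 88.9%. The leading model's median share was 89.0% with partial models included. Of the comparison of the libraries, members called numbered 24 with at least 20 reads, 18 with no minimum, 18 after thinning, 16 of 77 with annotated models alone, 19 with complete models alone, 30 with TMM and 12 with the expected share set by length. Of those calls, Mrpl3 was higher in replicate 1 with at least 20 reads and Mrps7 after thinning, and no member under the other 5 settings. With length set, the log2 difference of Mrpl42 was -0.20, that of Mrps21 -0.044, that of Mrps36 -0.00059 and that of Mrpl54 -0.12, so these 4 lay near or below the length trend with no call (adjusted p from 0.591 to 1), while their ratio itself stayed above 0, and 9 other members lost the call. Keying models by their chain of introns gave 22 in place of 48 called genes of 961 for model shares, and 62 of 2108 genes were called with at least 20 reads. The cause of these differences was not tested. No value for the comparison of the libraries exists with 1 left out. A depth of 626289 reads limits the lowest members, at 9 to 23 reads.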
